A study of Mus musculus with 10 samples.

Results

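The genes described here carry the tricarboxylic acid (TCA) cycle, the breakdown of the branched-chain amino acids (BCAAs) leucine, isoleucine and valine, and the use of ketone bodies, in the left ventricle (LV) of young mice under pressure overload. They were 38 named genes of the 55401 in the deposited tables, 17 for the TCA cycle and the shuttle and refill steps next to it, 18 for BCAA breakdown and 3 for ketone use, and they were taken by gene name from these pathways, with earlier results of these data known. LV samples came from 5 mice with neonatal ascending aorta constriction (nAAC), in which the vessel leaving the LV was narrowed shortly after birth, and from 5 sham mice that had the operation without the narrowing. All 10 mice were wild type (WT), bred from C57BL/6 stock, kept with their mothers after the operation and studied at 4 weeks of age. Neither group received a drug or carried another allele, and both sexes were used, with the sex of each of these mice not known here. There was 1 library per mouse, made from total LV RNA by RNA sequencing.

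The TCA cycle oxidises acetyl groups inside mitochondria and hands the electrons to the respiratory chain, and the heart runs on it almost continuously. BCAAs are first stripped of their amino group, then committed to oxidation by the branched-chain ketoacid dehydrogenase complex (BCKDH), which a kinase turns off and a phosphatase turns on, and the carbon that remains enters the TCA cycle as acetyl-CoA or succinyl-CoA. Ketone bodies reach the heart from the liver. In the heart, BDH1 turns 3-hydroxybutyrate into acetoacetate, OXCT1 attaches CoA taken from succinyl-CoA and ACAT1 splits the product into acetyl-CoA.

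Gene coordinates below are those of the tables, which follow mm10 (GRCm38). Expression was measured as FPKM, a read density that the authors normalized for transcript length and library depth. The depth estimated from the tables was 4.86 to 6.82 gigabases in nAAC and 5.06 to 5.24 gigabases in sham libraries. The FPKM of all genes summed to 577140 to 656229 in nAAC and 633241 to 727602 in sham libraries (exact permutation p = 0.0159). At least 1 FPKM was reached by 11889 to 12455 genes in nAAC and 11182 to 11721 genes in sham libraries (exact permutation p = 0.0079). Sham mouse 4 stood apart from the other libraries on the second principal component, at -45.2 where the other 9 lay between -15.1 and 21.1, so results are also given without it. The summed FPKM of 12 cardiomyocyte (CM) markers ran from 15897 to 25995 in nAAC and from 18444 to 38405 in sham (exact permutation p = 0.595), with sham mouse 4 highest, nAAC mouse 1 lowest and no marker at 0 in any library. Of the 12, Actn2 and Mybpc3 were called higher and Tnni3 and Pln lower. After median-ratio scaling Actn2 and Mybpc3 were still called higher and 4 were called lower. The summed FPKM of 8 cardiac fibroblast (CF) markers ran from 606 to 1089 in nAAC and from 377 to 442 in sham (exact permutation p = 0.0079). Of the 8, 7 were called higher, and 5 after median-ratio scaling. Mural markers (3 of 4 called higher), endothelial markers (1 of 6) and macrophage, atrial and erythroid markers (none of 6, 3 and 3) had sums that overlapped between the groups, and the 3 adipocyte markers were at or near 0. The atrial sum was 134 FPKM in nAAC mouse 2 and 227 FPKM in nAAC mouse 3. It was 2.03 to 28.3 FPKM in the other nAAC mice and 3.05 to 44.7 FPKM in sham. The part of atrial tissue in the members' levels was not tested. The transcripts of the mitochondrial genome took 32.8 to 39.9% of TPM in nAAC and 33.7 to 49.8% in sham. Xist, the transcript of the inactive X chromosome, was at 0.0232 FPKM in nAAC mouse 2 and from 14.8 to 17.9 FPKM in the other 4 nAAC mice, and in sham it was at 0 to 0.0168 FPKM in mice 1 to 3, 3.70 FPKM in mouse 4 and 10.6 FPKM in mouse 5. The mean of Xist was 13.3 FPKM in nAAC and 2.86 FPKM in sham (exact permutation p = 0.0238). The groups thus may not be balanced for sex, and a part of sex cannot be fully told apart from the operation. In bulk LV samples, fewer cells of a type and less RNA per cell cannot be told apart.

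Most of the TCA cycle and BCAA genes had lower levels in nAAC than in sham, and 1 ketone gene, Bdh1, had a mean level 45.1-fold higher (84.0-fold without sham mouse 4). A gene was called at an adjusted p below 0.05 in limma on log2(FPKM + 1), with the Benjamini-Hochberg adjustment taken across the 11867 genes that had a mean of at least 1 FPKM. All 38 members passed that filter. Of them, 11 were called lower (28.9%), 2 were called higher (5.26%) and 25 were not called, where 31.7% of all genes tested were called, 4.60% lower and 27.1% higher. In 12 members every nAAC mouse lay below every sham mouse, and in 2 every nAAC mouse lay above, where the shares among all genes were 3.46% and 18.9%.

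These counts depend on how the libraries are brought to a common scale. The median log2 fold change (FC, nAAC minus sham) over all genes was 0.22 on the deposited scale and 0.02 after median-ratio scaling, in which each library is divided by its median ratio to a common reference. After that scaling, 25 members were called lower (65.8%) and 1 higher (2.63%), where 25.4% of 11837 genes were called, 11.4% lower and 14.0% higher. The 11 members called lower on the deposited scale were called lower on both. Relative to the median of all genes, the members had a median log2 FC of -0.54 on the deposited scale and -0.58 after median-ratio scaling, and 35 of 38 lay below the all-gene median on the deposited scale. The TCA cycle members had -0.55, the BCAA members -0.54 and the ketone members 0.05. The ketone value is that of Oxct1, the middle of only 3 genes, with Bdh1 at 4.40 and Acat1 at -0.51. Without sham mouse 4 the members' value was -0.47, with 12 members called lower and 3 higher. The same quantity was -0.57 for 27 nuclear genes of oxidative phosphorylation, with 5 called lower, and -0.87 for 19 genes of fatty acid oxidation, with 12 called lower. Means are given ± SD over 5 mice, and all log2 FCs below are on the log2(FPKM + 1) scale, which understates the change of genes at low levels. With Xist as a covariate 8 members were called lower, and the part of CM and CF content in these differences was not tested.

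**Figure D1:**
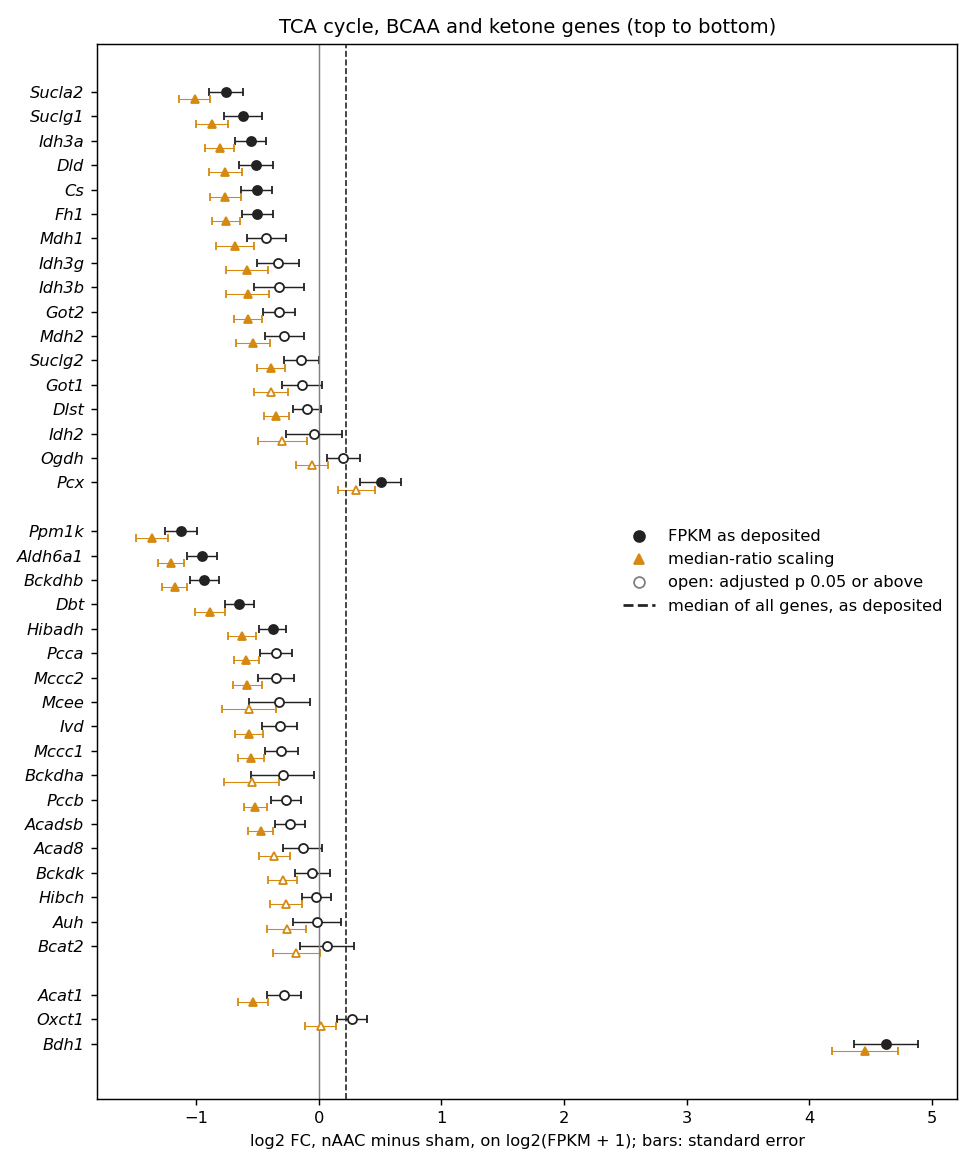
Log2 FC of each of the 38 members (x axis, nAAC minus sham on the log2(FPKM + 1) scale, with standard error bars, 5 mice per group), with filled points for genes called at an adjusted p below 0.05 and a dashed line at the median of all genes tested, 0.22. Of the 38 points, 35 lie left of the dashed line, and Bdh1 lies far to the right at 4.63.

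The TCA cycle genes were abundant, and 6 of the 17 were called lower in nAAC, with none of the 6 sharing any level between the groups. Both subunits of the ADP-forming succinyl-CoA ligase, which makes ATP directly in the cycle, were among them. Sucla2 (ENSMUSG00000022110, chr14:73525319-73596142), the ADP-specific beta subunit, was at 106, 146, 118, 135 and 141 FPKM in nAAC mice 1 to 5 and 191, 217, 214, 262 and 213 FPKM in sham mice 1 to 5. Its mean was 41.0% lower in nAAC (log2 FC -0.76, SE 0.14, adjusted p = 0.0012), the largest decrease among the TCA cycle members. Suclg1 (ENSMUSG00000052738, chr6:73248382-73276911), the alpha subunit that both forms of the ligase share, was at 89.4, 128, 106, 119 and 112 FPKM in nAAC mice 1 to 5 and 155, 152, 147, 231 and 175 FPKM in sham mice 1 to 5. The mean of Suclg1 was 35.6% lower (log2 FC -0.62, SE 0.16, adjusted p = 0.00924), and sham mouse 4 had the highest level. Suclg2, the GDP-specific beta subunit, was at 24.8 ± 3.78 FPKM in nAAC against 27.5 ± 4.52 FPKM in sham, and its groups overlapped (adjusted p = 0.466).

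Citrate synthase, which opens the cycle, and the catalytic subunit of the NAD-linked isocitrate dehydrogenase also had lower levels. Cs (ENSMUSG00000005683, chr10:128337734-128362479) was at 209, 254, 213, 242 and 216 FPKM in nAAC mice 1 to 5 and 353, 316, 313, 278 and 353 FPKM in sham mice 1 to 5, with the highest nAAC mouse below sham mouse 4, the lowest sham mouse. Its mean was 29.8% lower in nAAC (log2 FC -0.51, SE 0.13, adjusted p = 0.00972). Idh3a (ENSMUSG00000032279, chr9:54586334-54604661) was at 120, 145, 125, 147 and 134 FPKM in nAAC mice 1 to 5 and 174, 201, 192, 235 and 187 FPKM in sham mice 1 to 5. The nAAC mice covered a range below every sham mouse, and the mean was 32.3% lower (log2 FC -0.56, SE 0.13, adjusted p = 0.00554). The other subunits of that enzyme, Idh3b and Idh3g, were not called, at 247 ± 30.2 FPKM in nAAC against 322 ± 112 FPKM in sham and 154 ± 23.1 FPKM in nAAC against 196 ± 45.4 FPKM in sham. Idh2, the NADP-linked form, was at 550 ± 85.7 FPKM in nAAC against 591 ± 211 FPKM in sham, and its log2 FC of -0.04 turned positive without sham mouse 4 (0.10) and without nAAC mouse 1 or 5 or sham mouse 5.

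Dld and Fh1 complete the 6 called lower. Dld (ENSMUSG00000020664, chr12:31331277-31351453), the dihydrolipoyl dehydrogenase that the pyruvate, 2-oxoglutarate and branched-chain ketoacid dehydrogenase complexes share, was at 91, 107, 80.5, 98.7 and 102 FPKM in nAAC mice 1 to 5 and 120, 142, 136, 169 and 120 FPKM in sham mice 1 to 5. Its mean was 30.3% lower in nAAC (log2 FC -0.51, SE 0.14, adjusted p = 0.0133). Fh1 (ENSMUSG00000026526, chr1:175600374-175625635), fumarase, was at 87.4, 101, 94.7, 94.8 and 104 FPKM in nAAC mice 1 to 5 and 135, 121, 125, 168 and 139 FPKM in sham mice 1 to 5. The mean of Fh1 was 30.0% lower (log2 FC -0.50, SE 0.13, adjusted p = 0.00927), and all 5 nAAC mice lay below sham mouse 2, the lowest sham mouse. Cs, Dld and Fh1 lost their call when TPM replaced FPKM, at adjusted p values of 0.0700, 0.0610 and 0.0695, and Cs and Dld also lost it with Xist as a covariate, at 0.0779 and 0.0927.

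The remaining 11 TCA cycle members fell into genes near the threshold and genes whose groups overlapped widely. Mdh1, the cytosolic malate dehydrogenase and the most abundant member, was at 536 ± 36 FPKM in nAAC against 733 ± 163 FPKM in sham, with every nAAC mouse below every sham mouse. It missed the threshold (log2 FC -0.43, SE 0.16, adjusted p = 0.054) and passed it without sham mouse 4, whose level of 1024 FPKM was above the other sham mice, the next of which was at 678 FPKM (log2 FC -0.30, adjusted p = 0.0441). Mdh2, the mitochondrial form, was at 432 ± 30 FPKM in nAAC against 534 ± 112 FPKM in sham. Got2 and Got1, the mitochondrial and cytosolic aspartate aminotransferases of the malate-aspartate shuttle, were at 216 ± 13.4 FPKM in nAAC against 272 ± 34.4 FPKM in sham and 239 ± 7.53 FPKM in nAAC against 269 ± 65.4 FPKM in sham. Ogdh and Dlst, the first and second enzymes of the 2-oxoglutarate dehydrogenase complex, were at 307 ± 22.5 FPKM in nAAC against 268 ± 31.3 FPKM in sham and 129 ± 9.64 FPKM in nAAC against 138 ± 7.47 FPKM in sham. The sign of Ogdh followed the scale, with a log2 FC of 0.20 as deposited and -0.06 after median-ratio scaling.

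Pcx, pyruvate carboxylase, which refills the cycle with oxaloacetate, was the least abundant member and the only TCA cycle member called higher. Its levels were 4.09 to 5.84 FPKM in nAAC and 2.11 to 4.92 FPKM in sham, with sham mouse 5 above most nAAC mice. Its log2 FC was 0.50 (SE 0.17, adjusted p = 0.0364) and 0.31 (adjusted p = 0.153) after median-ratio scaling, and the call held in 3 of the 10 fits that each left out 1 mouse. Lrfn4, on the opposite strand within Pcx, reached a mean of 4.31 FPKM in one group, 91.6% of the level of Pcx. The sources used here do not say whether strand was used in counting, so reads of both genes cannot be told apart.

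After median-ratio scaling, 13 of the 17 TCA cycle members were called lower and none higher, and Pcx, Ogdh, Idh2 and Got1 were the 4 not called.

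In BCAA breakdown, 5 of 18 members were called lower and none higher, and Ppm1k, Aldh6a1 and Bckdhb had the 3 largest decreases among the members. The members called lower act at the committed step (Ppm1k, Bckdhb and Dbt) and late in valine breakdown (Aldh6a1 and Hibadh). Hibadh, at a log2 FC of -0.37, was close to Pcca of the propionate branch, at -0.35 and not called. Differences between the branches were not tested. Ppm1k (ENSMUSG00000037826, chr6:57506502-57535468), the phosphatase that turns BCKDH on, was at 6.34, 8, 5.58, 7.35 and 6.99 FPKM in nAAC mice 1 to 5 and 13, 18.6, 18.6, 15 and 15.8 FPKM in sham mice 1 to 5. The highest nAAC mouse, mouse 2, lay well below the lowest sham mouse, mouse 1. The mean was 57.7% lower in nAAC (log2 FC -1.13, SE 0.13, adjusted p = 3.34e-05), and Ppm1k was the only member called lower with a decrease beyond 1 on the log2 scale, where 0.893% of all genes tested passed that rule.

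Of the BCKDH complex itself, Bckdhb and Dbt were called lower and Bckdha was not. Bckdhb (ENSMUSG00000032263, chr9:83925145-84124240), the beta subunit of its first enzyme, was at 13.6, 14.7, 12.6, 13.7 and 13 FPKM in nAAC mice 1 to 5 and 23.1, 25.3, 24.5, 33.1 and 28.4 FPKM in sham mice 1 to 5. Its mean was 49.8% lower in nAAC (log2 FC -0.93, SE 0.12, adjusted p = 7.62e-05), with the 5 nAAC mice within a narrow range. Dbt (ENSMUSG00000000340, chr3:116513070-116549981), the second enzyme of the complex, was at 10.4, 11.8, 9.92, 11.3 and 12.6 FPKM in nAAC mice 1 to 5 and 14.9, 20.2, 20.6, 17.8 and 17.5 FPKM in sham mice 1 to 5. The groups were apart, and the mean of Dbt was 38.4% lower (log2 FC -0.65, SE 0.12, adjusted p = 0.00121). Bckdha, the alpha subunit of the first enzyme, was at 51.2 ± 7.11 FPKM in nAAC against 67.8 ± 29.8 FPKM in sham, with a wide spread in sham from 37.5 to 99.8 FPKM (adjusted p = 0.397). Bckdk, the kinase that turns the complex off, was at 16.9 ± 1.03 FPKM in nAAC against 17.9 ± 3.79 FPKM in sham (log2 FC -0.06, adjusted p = 0.788). Bcat2, the mitochondrial aminotransferase that opens the pathway, was at 33.1 ± 1.69 FPKM in nAAC against 33.6 ± 14.2 FPKM in sham, and its sign was positive as deposited (0.06) and negative after median-ratio scaling (-0.18).

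Aldh6a1 and Hibadh, which act one after the other at the end of valine breakdown, were called lower. Aldh6a1 (ENSMUSG00000021238, chr12:84430717-84451004), methylmalonate semialdehyde dehydrogenase, was at 27.9, 32.6, 28.3, 32.5 and 33.1 FPKM in nAAC mice 1 to 5 and 52.9, 63.3, 62.2, 54 and 72.8 FPKM in sham mice 1 to 5. The highest nAAC mouse was well below the lowest sham mouse, and the mean was 49.4% lower (log2 FC -0.96, SE 0.12, adjusted p = 8.83e-05). Hibadh (ENSMUSG00000029776, chr6:52546228-52640389), 3-hydroxyisobutyrate dehydrogenase, was at 72.5, 86.6, 77.1, 72.9 and 77.7 FPKM in nAAC mice 1 to 5 and 96.7, 99.1, 98.7, 110 and 98.4 FPKM in sham mice 1 to 5. Its mean was 23.0% lower (log2 FC -0.37, SE 0.11, adjusted p = 0.0211), but the call was lost without nAAC mouse 4 (adjusted p = 0.0576) or nAAC mouse 5 (0.0505), when TPM replaced FPKM (0.166) and with Xist as a covariate (0.13). Of the steps between BCKDH and Hibadh, Acad8 and Hibch had overlapping groups, at 8.77 ± 1.38 FPKM in nAAC against 9.84 ± 2.45 FPKM in sham and 28.5 ± 3.54 FPKM in nAAC against 28.9 ± 2.58 FPKM in sham. Echs1, the hydratase between them and no member, was at 123 ± 12.1 FPKM in nAAC against 171 ± 41.5 FPKM in sham with groups that did not overlap, and it was not called (log2 FC -0.44, adjusted p = 0.0576).

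**Figure D2:**
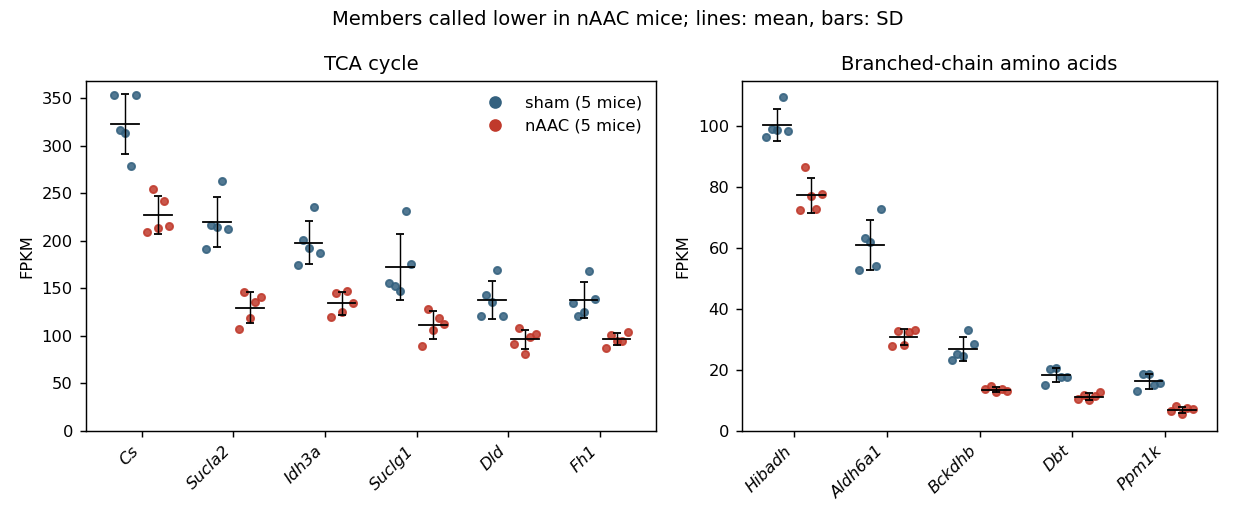
FPKM by mouse (y axis, linear scale) of the 6 TCA cycle and 5 BCAA members called lower in nAAC, with 1 point per mouse, 5 mice per group, horizontal lines at the means and bars for the SD. For each gene every nAAC mouse lies below every sham mouse, from Ppm1k at 6.85 against 16.2 FPKM to Hibadh at 77.4 against 101 FPKM.

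The members of the leucine and propionate branches were not called on the deposited scale. Ivd, isovaleryl-CoA dehydrogenase, was at 49.2 ± 2.43 FPKM in nAAC against 62.5 ± 12.6 FPKM in sham (adjusted p = 0.102), and the carboxylase subunits Mccc1 and Mccc2 were at 21.5 ± 2.25 FPKM in nAAC against 27 ± 4.48 FPKM in sham and 12.5 ± 1.23 FPKM in nAAC against 16.4 ± 3.81 FPKM in sham. Auh, the hydratase after them, was at 28.6 ± 5.33 FPKM in nAAC against 29.5 ± 9.09 FPKM in sham. Acadsb, which acts on isoleucine, was at 16.5 ± 1.25 FPKM in nAAC against 19.7 ± 3.26 FPKM in sham. Pcca and Pccb, the subunits of propionyl-CoA carboxylase, were at 13.7 ± 1.81 FPKM in nAAC against 17.8 ± 2.52 FPKM in sham and 27.8 ± 1.53 FPKM in nAAC against 33.9 ± 4.84 FPKM in sham, and Mcee, the epimerase after it, was at 32.2 ± 9.26 FPKM in nAAC against 41 ± 15.4 FPKM in sham. Ggact, which overlaps Pcca on the other strand, stood at 38.3% of the level of Pcca. The 13 uncalled BCAA members had log2 FCs from -0.35 to 0.06. After median-ratio scaling, 11 of the 18 BCAA members were called lower, among them Ivd (log2 FC -0.57, adjusted p = 0.00263), Mccc1, Mccc2, Acadsb, Pcca and Pccb.

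Promoter sequence is printed for the 2 BCAA members with the largest decreases on the log2(FPKM + 1) scale and, below, for Bdh1, so that the genes that moved most can be read beside each other. The windows come from RefSeq on GRCm38.p6 and were matched for 35 of the 38 members, with 46 windows in all. Each line gives the 250 bases before an annotated start, 5′ to 3′ on the gene's strand, with any GCGTG or its reverse complement CACGC in capitals. GCGTG is the core of the dioxin-responsive element, the sequence that the aryl hydrocarbon receptor (AHR) binds, and AHR is the receptor the study is about. The printed windows of Ppm1k (chr6:57535488-57535737, minus strand) and Aldh6a1 (chr12:84451025-84451274, minus strand) held no such letters. Aldh6a1 did hold the motif outside the 250 bases before its starts, so it is among the genes counted with it over the full windows below. Ppm1k is not among them.
Ppm1k: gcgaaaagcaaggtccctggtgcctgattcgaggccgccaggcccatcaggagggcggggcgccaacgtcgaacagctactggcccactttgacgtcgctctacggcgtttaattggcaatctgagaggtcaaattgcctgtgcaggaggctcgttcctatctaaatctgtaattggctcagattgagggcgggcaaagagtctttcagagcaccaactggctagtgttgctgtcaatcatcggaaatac
Aldh6a1: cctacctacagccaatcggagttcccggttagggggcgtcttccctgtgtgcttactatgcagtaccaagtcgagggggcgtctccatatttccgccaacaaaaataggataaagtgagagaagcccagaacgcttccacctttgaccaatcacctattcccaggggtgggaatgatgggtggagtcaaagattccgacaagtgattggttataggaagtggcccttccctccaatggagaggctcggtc

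Among the ketone genes, Bdh1 was at low levels in every sham mouse and at 34.3 or more FPKM in every nAAC mouse. Bdh1 (ENSMUSG00000046598, chr16:31422280-31458901), the dehydrogenase that opens the use of 3-hydroxybutyrate, was at 42.1, 49.3, 66.5, 39.3 and 34.3 FPKM in nAAC mice 1 to 5 and 0.54, 0.583, 0.415, 2.92 and 0.665 FPKM in sham mice 1 to 5. Sham mouse 4 was the highest sham mouse and still lay far below the lowest nAAC mouse. Without it the sham mean was 0.551 ± 0.104 FPKM (n = 4) in place of 1.03 ± 1.07 FPKM. The log2 FC was 4.63 (SE 0.26, adjusted p = 1.31e-07), 4.45 (adjusted p = 2.63e-07) after median-ratio scaling, 5.69 (adjusted p = 7.13e-07) with a pseudocount of 0.1 and 4.90 (adjusted p = 1.26e-08) without sham mouse 4, and the call held in all 10 fits that each left out 1 mouse. Among all genes tested, 5.01% were called higher with a log2 FC above 1. The predicted gene Gm15743, on the opposite strand at the same locus, had a mean of at most 0.789 FPKM in either group, 1.70% of the nAAC mean of Bdh1. That value is near the sham mean of Bdh1, 1.03 FPKM, and the use of strand in counting is not known.

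Oxct1 and Acat1, the steps after Bdh1, differed far less. Oxct1 (ENSMUSG00000022186, chr15:4026383-4155344), the CoA transferase that sets the rate of ketone use, was at 225, 271, 226, 242 and 241 FPKM in nAAC mice 1 to 5 and 189, 213, 200, 216 and 181 FPKM in sham mice 1 to 5. The lowest nAAC mouse was above the highest sham mouse, and the mean was 1.21-fold higher, but the call was missed (log2 FC 0.27, SE 0.12, adjusted p = 0.106). Oxct1 was called without sham mouse 4 (log2 FC 0.30, adjusted p = 0.0497), and after median-ratio scaling its log2 FC was 0.01 (adjusted p = 0.95). Acat1 (ENSMUSG00000032047, chr9:53580522-53610382), the thiolase that ends both ketone use and isoleucine breakdown, was at 76.7, 96.8, 81.9, 81.4 and 81 FPKM in nAAC mice 1 to 5 and 96.7, 90.9, 89.2, 132 and 105 FPKM in sham mice 1 to 5. The groups overlapped (log2 FC -0.29, SE 0.14, adjusted p = 0.129), and Acat1 was called lower after median-ratio scaling (log2 FC -0.54, adjusted p = 0.00578).

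**Figure D3:**
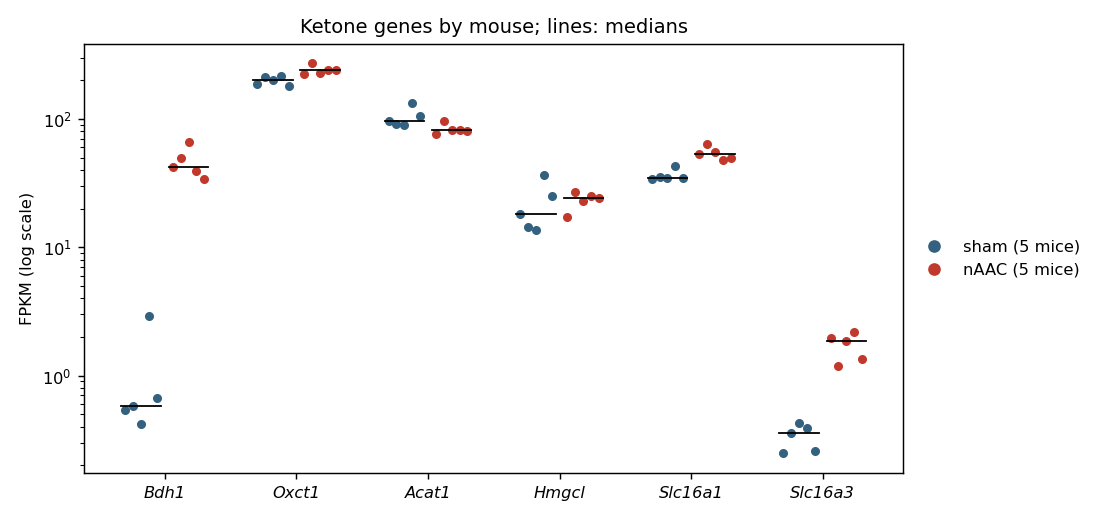
FPKM by mouse (y axis, log scale) of Bdh1, Oxct1, Acat1 and other ketone genes, with 1 point per mouse, 5 mice per group, and lines at the group medians. The nAAC mice lie between 34.3 and 66.5 FPKM for Bdh1, the sham mice between 0.415 and 2.92 FPKM, and the groups of Oxct1 are close to each other but apart.

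Of the 2 annotated starts of Bdh1, the window before the first (chr16:31422047-31422296, plus strand) held 1 copy of CACGC, 29 bases before the start, and the window before the second held none.
Bdh1: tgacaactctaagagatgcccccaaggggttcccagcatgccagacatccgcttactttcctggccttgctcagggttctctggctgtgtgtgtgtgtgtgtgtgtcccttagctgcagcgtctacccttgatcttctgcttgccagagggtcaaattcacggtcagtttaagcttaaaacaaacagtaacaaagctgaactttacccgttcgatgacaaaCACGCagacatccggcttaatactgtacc
Over the full windows of 300 bases, which reach 50 bases past the start, GCGTG or its complement was in 23 of 46 member windows (50%, from 19 genes) and in 32.4% of 32851 promoters. The member windows had a median GC content of 57.8% against 52.7% in all promoters, and the motif holds 4 G or C letters of 5. It was in windows of 5 of the 9 members called lower that had a window. The motif AAGGTCA with its complement TGACCTT, the extended site that estrogen-related receptors bind, was in 2 windows (4.35%), those of Ogdh and Got1, and in 4.72% of all promoters. Neither motif holds the other, and a match of letters is not a measured binding site.

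Of 44 further genes of the same pathways, 39 passed the filter, 7 were called higher (17.9%) and 6 lower (15.4%) on the deposited scale, beside 27.1% and 4.60% of all genes. The share called higher was thus below that of all genes. In the TCA cycle and its entry, Sdha, the flavoprotein of succinate dehydrogenase, was at 210 ± 32.9 FPKM in nAAC against 310 ± 46.8 FPKM in sham (log2 FC -0.56, adjusted p = 0.016). Ogdhl, a second form of 2-oxoglutarate dehydrogenase, was at 11.4, 13.9, 12.9, 11.7 and 15.1 FPKM in nAAC mice 1 to 5 and 30.8, 24.1, 22.9, 29.3 and 34 FPKM in sham mice 1 to 5. Its groups were far apart, at less than any sham level in every nAAC mouse (log2 FC -1.05, SE 0.13, adjusted p = 7.69e-05). Pdp2, a phosphatase that turns pyruvate dehydrogenase on, was at 1.61 ± 0.166 FPKM in nAAC against 3.09 ± 0.496 FPKM in sham (log2 FC -0.64, adjusted p = 0.000701). Of the 4 kinases that turn it off, Pdk1 and Pdk3 were called higher, at 32.5 ± 3.09 FPKM in nAAC against 23 ± 3.21 FPKM in sham and 2.5 ± 0.415 FPKM in nAAC against 1.33 ± 0.267 FPKM in sham. The other two were more abundant and not called, Pdk2 at 83.8 ± 9.17 FPKM in nAAC against 111 ± 27.2 FPKM in sham (log2 FC -0.37, adjusted p = 0.0977) and Pdk4 at 63.5 ± 43.5 FPKM in nAAC against 88.9 ± 9.18 FPKM in sham (log2 FC -0.75, adjusted p = 0.139), and Pdk2 was called lower after median-ratio scaling (adjusted p = 0.00365). Me2, a mitochondrial malic enzyme, and Slc25a1, which carries citrate out of mitochondria, were also called higher, at 3.39 ± 0.386 FPKM in nAAC against 2.1 ± 0.402 FPKM in sham and 4.41 ± 0.625 FPKM in nAAC against 2.12 ± 0.935 FPKM in sham.

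Among further BCAA genes, Mmut, the mutase that delivers succinyl-CoA, was at 16.4 ± 2.23 FPKM in nAAC against 23.9 ± 1.71 FPKM in sham (log2 FC -0.53, adjusted p = 0.00475). Hadha, of the trifunctional protein, which also serves fatty acid oxidation, was at 144 ± 19 FPKM in nAAC against 227 ± 37.8 FPKM in sham (log2 FC -0.65, adjusted p = 0.006). Abat, a mitochondrial aminotransferase, was called higher at 3.02 ± 0.702 FPKM in nAAC against 1.18 ± 0.321 FPKM in sham (log2 FC 0.88, adjusted p = 0.000546). Among further ketone genes, Slc16a1, a carrier of lactate and ketone bodies across the cell membrane, was at 53.9 ± 6.27 FPKM in nAAC against 36.2 ± 3.72 FPKM in sham (log2 FC 0.56, adjusted p = 0.00382), and its relative Slc16a3 was at 1.71 ± 0.429 FPKM in nAAC against 0.335 ± 0.0799 FPKM in sham (log2 FC 1.01, adjusted p = 5.45e-05). After median-ratio scaling 22 of these further genes were called lower and 3 higher, among 38 tested. Pdk3, Slc25a1 and Abat were the 3 called higher, and Slc16a3 no longer passed the filter.

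Ratios of 2 genes within a library do not depend on the scale between libraries. Of 12 pairs of members, 4 differed in an exact permutation test of the log2 ratio with the Benjamini-Hochberg method over the pairs (each exact p = 0.0079, the smallest that 5 against 5 mice allow, adjusted p = 0.0238). The geometric mean of Bckdk over Ppm1k, kinase over phosphatase, was 2.48 in nAAC (2.08 to 3.12) and 1.09 in sham (0.737 to 1.45), so it was 2.27-fold higher in nAAC. That of Sucla2 over Suclg2, the ADP over the GDP form, was 5.23 in nAAC (4.63 to 5.66) and 8.01 in sham (6.25 to 8.92). That of Ogdh over Dlst was 2.37 in nAAC (2.24 to 2.73) and 1.93 in sham (1.51 to 2.15). That of Oxct1 over Bdh1 was 5.34 in nAAC (3.40 to 7.02) and 262 in sham (73.9 to 482). The ratios of Sucla2 to Suclg2 and of Ogdh to Dlst lost their call without nAAC mouse 1, 3, 4 or 5, at adjusted p values of 0.0635 and 0.0714, although their groups stayed apart.

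Of the other 8 pairs, Bckdha over Bckdhb came nearest, at 3.77 in nAAC and 2.35 in sham (exact permutation p = 0.0238, adjusted p = 0.0571), and was called without sham mouse 4 (adjusted p = 0.0476) or sham mouse 5 (0.019). Got1 over Got2 was at 1.11 in nAAC and 0.974 in sham and was called without sham mouse 4 (adjusted p = 0.0476). The carboxylase pairs had the smallest differences, with Mccc1 over Mccc2 at 1.73 in nAAC and 1.67 in sham and Pcca over Pccb at 0.490 in nAAC and 0.524 in sham. All 8 had groups that overlapped.

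**Figure D4:**
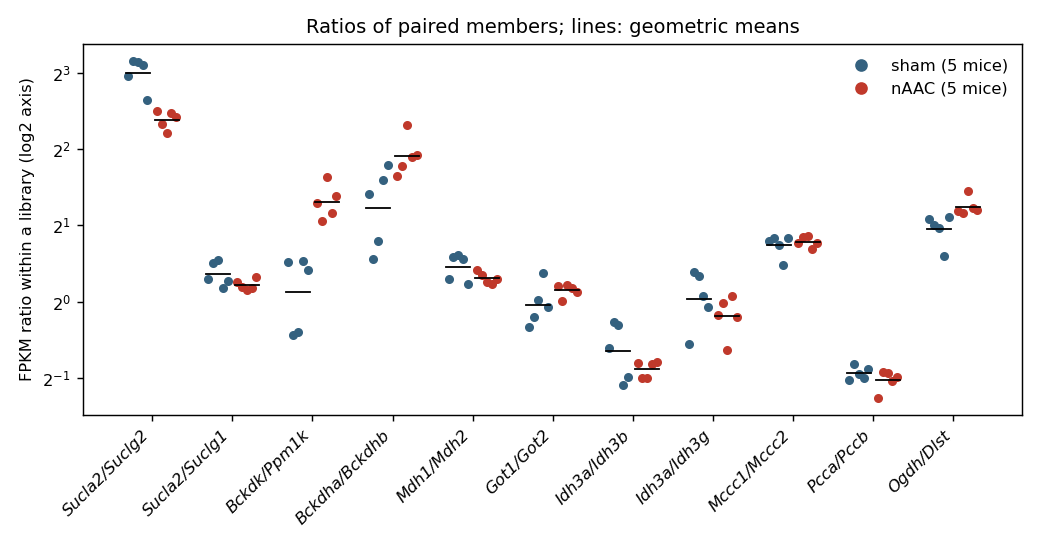
Within-library ratio of FPKM (y axis, log2 scale) for 11 pairs of members, with 1 point per mouse, 5 mice per group, and lines at the geometric means. Oxct1 over Bdh1 is left out because its sham values reach 482. For Bckdk over Ppm1k the nAAC mice lie between 2.08 and 3.12 and the sham mice between 0.737 and 1.45.

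Some mice were highest or lowest in their group for many members. Within nAAC, mouse 1 had the lowest level of 31 of the 38 members and mouse 2 the highest level of 23. Within sham, mouse 4 was highest for 24 members and mouse 5 for 10. The median log2 level of the members relative to the sham mean ran from -0.47 in nAAC mouse 1 to -0.15 in nAAC mouse 2, and from -0.16 in sham mouse 2 to 0.26 in sham mouse 4, so nAAC mouse 2 and the lowest sham mice were level with each other. The same quantity over all genes was 0.14 to 0.35 in nAAC, lowest in nAAC mouse 1 as well, and -0.07 to 0.16 in sham. The coefficient of variation of the members had a median of 9.40% in nAAC and 16.6% in sham and was wider in sham for 33 of 38. Neither this count nor those of highest and lowest mice were taken over all genes tested. In these counts a shift of whole libraries therefore cannot be told apart from one of the members. The medians were taken over both. Sham mouse 4 was at 0.26 for the members and 0.06 for all genes, and sham mouse 5 at 0.17 and 0.16. The CM marker sum was also lowest in nAAC mouse 1 and highest in sham mouse 4, and Xist was above 1 FPKM in sham mice 4 and 5 only among the sham mice. The part of these in the members' levels was not tested beyond the fits with Xist and without sham mouse 4.

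**Figure D5:**
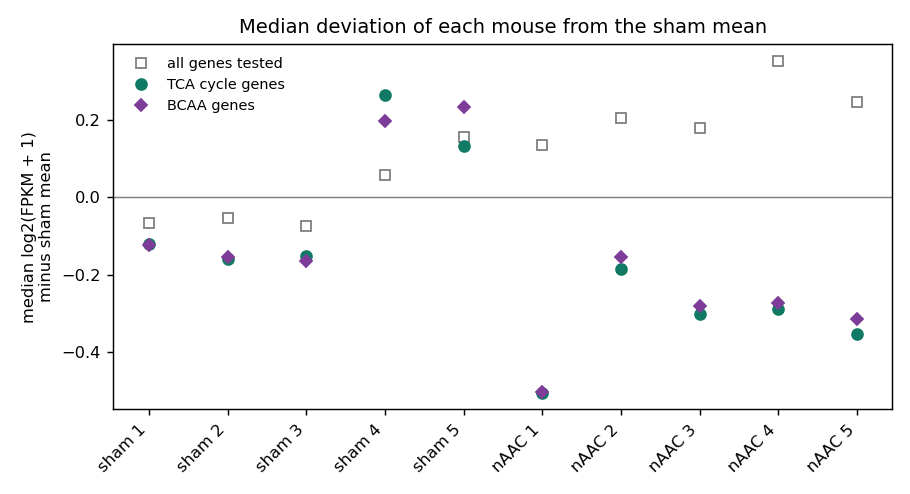
Median log2 level of the TCA cycle members, the BCAA members and all genes in each mouse (y axis, log2(FPKM + 1) minus the sham mean), with the 10 mice on the x axis. The points of both member groups lie below the square of all genes in every nAAC mouse and, by less, in sham mice 1 to 3. Sham mice 4 and 5 lie above the other sham mice.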

How the data were processed

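LV RNA libraries of 5 nAAC and 5 sham mice were compared, grouped by the operation named in the sample labels. For each mouse the authors deposited a table of genes with FPKM, TPM and coverage. The deposited FPKM values are normalized by the authors for gene length and library depth, the deposited TPM values are rescaled to a fixed sum, and the deposited coverage is a signal, the mean read depth over a gene's bases. The columns have the layout that StringTie writes for gene abundances. The submitters' processing notes name mm10, and the aligner, the quantifier, the use of strand and the differential test are not given in the sources used here. Start and end matched GENCODE annotation of GRCm38 for 37 members, and the start of Mdh1 differed.

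Rows sharing a gene ID were summed. Coverage served only to estimate depth from the ratio of FPKM to coverage at 15.0 to 16.6% of genes, so depth is an estimate, read counts cannot be recovered and no counting interval is given. The test was limma 3.58.1 (R 4.3.3) with an empirical Bayes trend on log2(FPKM + 1), a mean FPKM of at least 1 and Benjamini-Hochberg adjustment over all 11867 genes, checked on simulated data. Exact permutation tests were two-sided. Nothing states more than 1 library per mouse, and p values set the difference between the groups against the spread between these mice. In limma that spread is moderated across all genes tested. Python 3.11.15, pandas 2.3.3, numpy 2.4.6, scipy 1.17.1 and matplotlib 3.10.9 were also used. The members and gene lists were chosen with earlier results of these data known. Values of each mouse are given for members called with groups that do not overlap, at most 12 in each direction, and for Acat1, Bdh1 and Oxct1. Alternatives were 3 other scalings, TPM, no filter, a pseudocount of 0.1, a replicate block, Xist as a covariate, stricter thresholds and leaving out each mouse, with the removal of GC and length trends and median-ratio scaling without sham mouse 4 chosen after seeing the data. Not every further gene counted is reported here.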

Additional observations from a re-analysis of the deposited data

Results flagged for a closer look

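Of 122 groups of 5 values, 10 had a highest or lowest mouse whose gap to the next, divided by the range of the group, passed the critical value of 0.71, where chance passes about 1 group in 20, or 6.1 of 122. Sham mouse 4 was the highest sham mouse for Mdh1 (gap 0.902 of the range), Bdh1 (0.840) and Hibadh (0.809) and the lowest for Ogdh over Dlst (0.726). nAAC mouse 2 was the highest nAAC mouse for Mdh1 (0.805), Acadsb (0.780), Acat1 (0.721) and the summed adipocyte markers (0.778), which were at 0.198 FPKM or less in nAAC and at 0.0927 FPKM or more in sham. nAAC mouse 3 was the highest for Ogdh over Dlst (0.792), and nAAC mouse 1 was the highest for estimated depth (0.796).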

How the results depend on the processing

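With 11 members called lower as deposited, other scalings gave 25 (median ratio), 27 (upper quartile) and 18 (rescaled without mitochondrial genes), TPM gave 7, removing GC and length trends gave 28, median-ratio scaling without sham replicate 4 gave 26 and an absolute log2 FC above 1 gave 1. For the TCA cycle, 6 became 13 (median ratio), 14 (upper quartile, GC and length trends removed, and median ratio without sham replicate 4), 3 (TPM) and 0 (log2 FC above 1). For BCAA, 5 became 11 (median ratio, with or without sham replicate 4), 12 (upper quartile), 9 (without mitochondrial genes), 13 (GC and length) and 1 (log2 FC above 1). The 2 members called higher became 1, Bdh1, under median-ratio (with or without sham replicate 4) and upper-quartile scaling, no filter, Xist, GC and length trends removed and both stricter thresholds, and ranged from 1 to 3 when 1 mouse was left out, Oxct1 passing without sham replicate 4. Ketone members called higher went from 1 to 2 under TPM and ranged from 1 to 2 with 1 mouse left out. Of the further pathway genes, 6 called lower became 22 (median ratio with or without sham replicate 4, upper quartile), 10 (without mitochondrial genes), 23 (GC and length) and 2 (log2 FC above 1), and 7 called higher became 3 (median ratio, upper quartile), 4 (Xist) and 1 (log2 FC above 1). The members' median relative to all genes, -0.54, was -0.35 without the filter. The scale and the tested genes differ by construction, and the cause beyond that was not tested.

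Signs turned only for members that were not called. Under TPM these were Idh2 (0.13), Dlst (0.077), Suclg2 (0.022), Got1 (0.035), Bckdk (0.11), Auh (0.15), Hibch (0.15) and Acad8 (0.022). Ogdh turned under median-ratio scaling (-0.055, and -0.13 without sham replicate 4), upper-quartile scaling (-0.066) and removal of GC and length trends (-0.13), and Bcat2 under median-ratio (-0.18) and upper-quartile scaling (-0.19), Xist (-0.17) and GC and length (-0.27), with Hibch at 0.12 under Xist. With 1 mouse left out, log2 FC ranged from -0.17 to 0.10 for Idh2, -0.071 to 0.27 for Bcat2, -0.14 to 0.019 for Bckdk, -0.12 to 0.13 for Auh and -0.090 to 0.016 for Hibch, and the log2 of the ratio Mccc1/Mccc2 from -0.013 to 0.076. Over all members and alternatives, 632 results kept sign and side of the threshold, 73 newly passed it, 24 no longer passed and 31 turned sign.

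The values gave no sign that the replicate numbers pair the mice. The correlations of same-numbered mice were 0.19, -0.10, -0.32, -0.03 and 0.04, and 1 of 10 mice correlated best with its own number. The labels state no pairing, and such correlations cannot exclude one. With a replicate block 10 members were called lower and 1 higher, and the 4 ratios could not pass (adjusted p = 0.15, since 5 pairs allow no smaller exact permutation p than 0.0625).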
